A study of Mus musculus with 6 samples.

Results

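Homeostatic lymphoid chemokines and their receptors were measured as RNA in whole mouse lung, through 9 genes chosen by symbol. These were 5 ligands (Ccl19, Ccl21a, Cxcl12, Cxcl13 and Cxcl14) and 4 receptors (Ccr7, Cxcr4, Cxcr5 and Ackr3), of 23183 genes listed in the tables, and each of the 9 had a value in all 6 libraries. The libraries came from lung of mice titled wild type on a C57BL/6 background, 3 treated with saline and 3 with lipopolysaccharide (LPS), a bacterial outer membrane molecule that activates innate immunity, both by instillation into the trachea. The labels used here state no dose, time after instillation, age or sex. They also do not say that the libraries of a group are from different animals, and a p-value then reflects only the spread among these samples, which may be technical. Levels are given on the deposited scale, log2(expression value + 1), and a difference is LPS minus saline on that log2 scale, which understates the change of genes with low values. The depth of the libraries is unknown from the tables.

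Chemokines are small secreted proteins that direct cell migration through G protein-coupled receptors. The homeostatic members are made without infection by stromal and endothelial cells, and they place lymphocytes and dendritic cells in lymphoid tissue: CCL19 and CCL21 act on CCR7, CXCL13 on CXCR5, and CXCL12 on CXCR4, which also holds immature leukocytes in bone marrow. ACKR3 is an atypical receptor that binds CXCL12 and removes it from the extracellular space without classical G protein signalling. CXCL14 is an epithelial and stromal chemokine whose receptor is not settled, and in the lung CXCL13, CCL19 and CCL21 are known from lymphoid aggregates that form around airways and vessels.

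The titles of all 6 libraries name wild-type mice, and the genotype field says so too for the 3 saline libraries. For the LPS libraries that field instead names a knockout of LCN2 in LPS 1 and LPS 2 and of LCN4 in LPS 3, while the study's design text gives wild type for both groups. Lcn2 RNA was 13.29 to 13.82 in the libraries labelled LPS and 8.20 to 11.28 in those labelled saline, so the high values go against a knockout that removes the transcript. Were that field correct, every difference below would carry genotype and treatment together, and the 2 cannot be told apart. The table of LPS 3 ends early, which leaves out 4484 genes but none of the 9. The lung marker genes Sftpc, Scgb1a1 and Ager, which mark alveolar type 2, club and alveolar type 1 cells, had values of at least 9.86 in every library. Pearson's r between libraries, taken across genes (no independent replicates) with 6 values, was 0.964 to 0.975 in saline pairs, 0.984 to 0.988 in LPS pairs and 0.824 to 0.932 across groups.

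Of the 9 genes, 4 were higher in LPS (Cxcl13, Ackr3, Ccl19 and Cxcl14), 2 were lower (Cxcr5 and Ccl21a) and 3 did not pass the test (Cxcl12, Cxcr4 and Ccr7). The test was limma with Benjamini-Hochberg adjustment over 13116 genes at a threshold of 0.05, and it called 50.1% of all genes tested, 25.7% higher and 24.3% lower. The median difference of the 9 genes was 0.34, against 0.02 over all genes tested. A share of 6 in 9 is read against that background of 50.1%. All 6 called genes differed by over 2-fold, which held for 9.26% of genes tested in the higher and 8.87% in the lower direction. The LPS and saline values did not overlap for 6 of the 9 genes, and this was so for 63.4% of the genes tested. By role, 3 ligands rose, 1 fell and 1 did not pass, while 1 receptor rose, 1 fell and 2 did not pass. In whole tissue, fewer cells of a type and less RNA per cell cannot be told apart, and this holds for every value below.

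**Figure D1:**
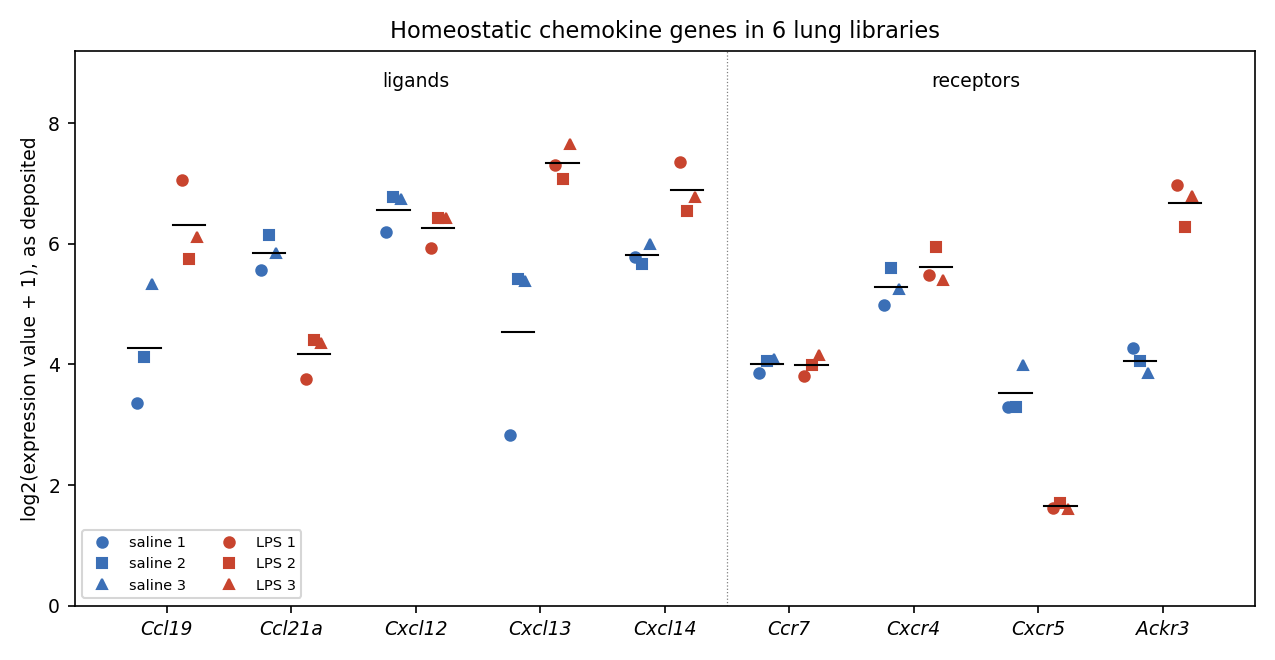
Deposited log2(expression value + 1) of the 9 genes in each library (y axis), with 3 saline libraries in blue and 3 LPS libraries in red, a symbol for each library number, and black lines for group means. Ackr3, Cxcl13, Ccl19 and Cxcl14 sit higher in all LPS libraries, Ccl21a and Cxcr5 sit lower, and the groups overlap for Cxcl12, Ccr7 and Cxcr4.

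Scaling between the libraries bears on the directions. When each library was rescaled to an equal total before the log (equal sums), the median difference of all genes moved from 0.02 to -0.67, because the summed values were larger in the LPS tables. Directions below are therefore relative to the scaling as deposited. With equal sums 798 of the 13116 genes tested were called higher and 8342 lower. With quantile normalization 2694 were called higher and 2787 lower. Counts given below under either scaling are read against these. Ackr3, Cxcl13 and Ccl19 stayed higher and Ccl21a and Cxcr5 stayed lower, each past the threshold, with equal sums and with quantile normalization.

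The plot of differences under 3 scalings shows which of the genes depend on this choice.

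**Figure D2:**
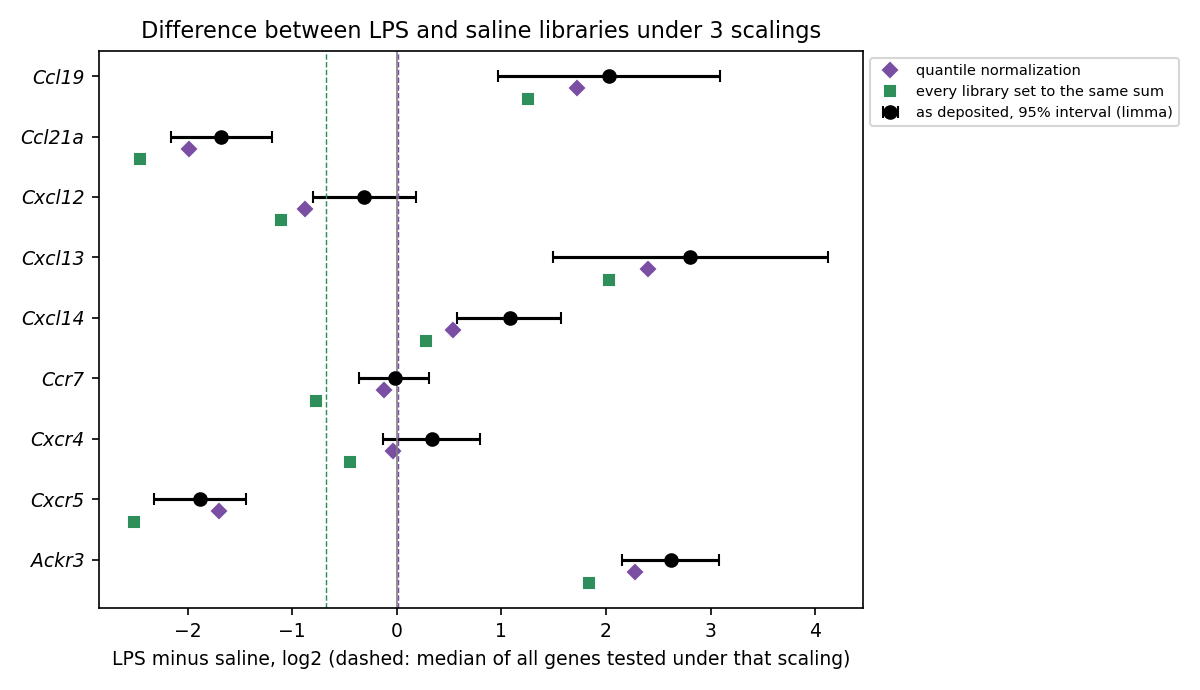
LPS minus saline difference (x axis, log2) for each gene as deposited, with the 95% limma interval in black, and with quantile normalization (purple) and equal sums (green); dashed lines mark the median of all genes tested under the latter 2. The intervals of Cxcl12, Ccr7 and Cxcr4 include 0, and with equal sums the values of those 3 lie at -1.10, -0.78 and -0.45.

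Among the ligands, Cxcl13, the B cell attractant made by follicular stroma and macrophages (chromosome 5, 95956951 to 95961068, mm10), had the largest difference. Its values were 2.83, 5.41 and 5.38 in saline 1, 2 and 3 and 7.30, 7.07 and 7.65 in LPS 1, 2 and 3. Saline 1 stood far below the other saline libraries, and every LPS value was above every saline value, with a gap of 1.66 between the groups. The mean was 4.54 ± 1.49 (SD, n = 3) in saline and 7.34 ± 0.29 (SD, n = 3) in LPS. Cxcl13 was 2.80 higher in LPS (SE 0.59, 95% interval 1.49 to 4.12, limma adjusted p = 0.00408), or 6.97-fold. Without saline 1 the difference was 1.94. By mean, Cxcl13 ranked 5 of the 9 in saline and 1 in LPS.

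Ccl19, a CCR7 ligand of lymphoid stroma and mature dendritic cells (chromosome 4, 42754525 to 42756577, minus strand), was 3.36, 4.12 and 5.33 in saline and 7.06, 5.74 and 6.11 in LPS. The groups were apart by 0.41, less than the range of 1.98 among the saline libraries, in which saline 3 was high. Ccl19 was 2.03 higher in LPS (SE 0.47, 95% interval 0.97 to 3.09, limma adjusted p = 0.00669), or 4.09-fold, from a mean of 4.27 ± 1.0 (SD, n = 3) to 6.30 ± 0.68 (SD, n = 3). The call ended (limma adjusted p = 0.0544) with saline 1 and 3 against LPS 1 and 2, a setting chosen after seeing the data. In the annotation, 58.8% of the distinct 31-base words of its transcripts also occur in transcripts of other genes (Gm2564, Gm12407, Ccl19-ps1 and Ccl19-ps3), which were not analysed here, so how reads were shared with these copies is uncertain.

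Ccl21a, the other CCR7 ligand, made by lymphatic endothelium and by stroma of T cell zones (chromosome 4, 42772860 to 42773993, minus strand), went the other way. Its values were 5.57, 6.14 and 5.85 in saline and 3.76, 4.41 and 4.35 in LPS, so that all LPS libraries lay below all saline libraries by at least 1.16. The mean was 5.85 ± 0.29 (SD, n = 3) in saline and 4.18 ± 0.36 (SD, n = 3) in LPS. Ccl21a fell by 1.68 (SE 0.22, 95% interval -2.16 to -1.19, limma adjusted p = 0.000423), which is 3.20-fold lower.

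Mice carry near-identical copies of this gene, and the value of Ccl21a rests on how reads were divided between them. Of the 31-base words of the Ccl21a transcript, 80.6% occur in transcripts of other genes, namely Gm21541 (80.6%), Gm13304 (79.5%), and Ccl21b and Gm10591 (36.9% each). Over 402 bases of coding sequence Ccl21b differs from Ccl21a at 2 positions, T84A and C194T (the Ccl21a base, the position counted from 1 at the start codon, then the Ccl21b base). The stretches of each copy around these positions, within 1 exon and 5′ to 3′ on the transcript strand, are shown because they hold the letters that separate the copies, in capitals:
Ccl21a, chr4:42773733-42773762, minus strand: cagtgatggagggggTcaggactgctgcct
Ccl21b, chr4:42255923-42255952, plus strand: cagtgatggagggggAcaggactgctgcct
Ccl21a, chr4:42773529-42773548, minus strand: gttctCaccccggaagcact
Ccl21b, chr4:42256137-42256156, plus strand: gttctTaccccggaagcact
The tables list Ccl21b at 0.12 at most and Gm13304 at 0 in every library, and Ccl21c, another copy by name, also near 0. These positions were compared between Ccl21a and Ccl21b only. Gm21541 and Gm10591 were not analysed here, so how the reads were divided among the copies is uncertain.

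Cxcl12 (chromosome 6, 117168535 to 117181367), made by endothelium and fibroblasts, was the most abundant of the 9 in saline. It was 6.19, 6.77 and 6.74 in saline and 5.93, 6.42 and 6.43 in LPS, and the groups overlapped. The means were 6.57 ± 0.33 (SD, n = 3) and 6.26 ± 0.28 (SD, n = 3), a difference of -0.31 (SE 0.22, 95% interval -0.80 to 0.18, limma adjusted p = 0.257). With quantile normalization (-0.88) and with equal sums (-1.10) it passed the threshold as lower.

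Cxcl14 (chromosome 13, 56288643 to 56296551, minus strand) was 5.78, 5.67 and 5.99 in saline and 7.36, 6.54 and 6.77 in LPS. The saline libraries were tight, the LPS libraries were spread with LPS 1 highest, and the groups were apart by 0.55. Cxcl14 was 1.08 higher (SE 0.22, 95% interval 0.58 to 1.57, limma adjusted p = 0.00381), or 2.11-fold, from 5.81 ± 0.16 (SD, n = 3) to 6.89 ± 0.43 (SD, n = 3). This call ended with quantile normalization (0.54) and with equal sums (0.28).

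Among the receptors, Ackr3 (chromosome 1, 90203980 to 90216751), formerly known as Cxcr7, differed most. Its values were 4.28, 4.06 and 3.85 in saline and 6.97, 6.27 and 6.79 in LPS. The gap of 1.99 between the groups was wider than the range within either group (0.43 in saline and 0.71 in LPS). Ackr3 was 2.62 higher in LPS (SE 0.21, 95% interval 2.15 to 3.08, limma adjusted p = 7.82e-05), or 6.13-fold, from 4.06 ± 0.21 (SD, n = 3) to 6.68 ± 0.37 (SD, n = 3). Leaving out each library in turn kept the difference between 2.47 and 2.82.

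Cxcr4, the signalling receptor for CXCL12 on leukocytes and endothelium (chromosome 1, 128588199 to 128592293, minus strand), was 4.99, 5.59 and 5.25 in saline and 5.49, 5.95 and 5.40 in LPS. The groups overlapped. The difference was 0.34 (SE 0.21, 95% interval -0.13 to 0.80, limma adjusted p = 0.202) between means of 5.28 ± 0.30 (SD, n = 3) and 5.61 ± 0.29 (SD, n = 3), and its sign turned with quantile normalization (-0.04) and with equal sums (-0.45, limma adjusted p = 0.0478). The interval as deposited spans 0.914-fold to 1.74-fold. All 9 neutrophil markers tested (of 10 listed) were higher in the same LPS libraries. Their summed values before the log, over the 8 markers with 6 values, were 647 to 1960 in saline and 9810 to 25400 in LPS, and their part in the Cxcr4 value was not tested.

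Ccr7, the receptor that brings T cells and mature dendritic cells into lymphoid tissue (chromosome 11, 99144196 to 99155077, minus strand), had the narrowest interval around 0. It was 3.86, 4.06 and 4.09 in saline and 3.81, 3.99 and 4.15 in LPS, and the groups overlapped. The difference was -0.02 (SE 0.15, 95% interval -0.36 to 0.31, limma adjusted p = 0.899) between means of 4.0 ± 0.12 (SD, n = 3) and 3.98 ± 0.17 (SD, n = 3), which bounds the fold between 0.779 and 1.24. With equal sums Ccr7 was lower (-0.78, limma adjusted p = 0.00219), close to the median of all genes under that scaling.

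Markers of 2 cell types that carry Ccr7 were measured beside it. Of 10 T cell markers tested 6 were lower and 0 higher (median -0.49), against 4 lower with quantile normalization (median -0.26) and 10 lower with equal sums (median -1.08). They were led by Cd2 (-1.25), Cd4 (-1.10) and Cd3e (-0.96), and the sum over 9 of them was 61.7 to 91.4 in saline and 46.9 to 54.8 in LPS. Of 9 migratory dendritic cell markers 3 were higher, 2 lower and 4 not called (median 0.54), and with equal sums 1 was higher and 4 lower (median -0.20). As deposited, Il4i1 was at 3.09 and Cd83 at 1.33 (0.57 and not past the threshold with equal sums) against Zbtb46 at -0.92, which has 2 LPS values. The sum over 7 of these was 28.3 to 91.9 in saline and 132 to 165 in LPS. The part of either cell type in the Ccr7 value was not tested.

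Cxcr5, the CXCL13 receptor of B cells and follicular helper T cells (chromosome 9, 44511787 to 44561877, minus strand), had the lowest mean of the 9 in both groups. Its values were 3.30, 3.30 and 3.99 in saline, with saline 3 highest, and 1.62, 1.71 and 1.61 in LPS, which lay within 0.10 of each other. Cxcr5 fell by 1.88 (SE 0.20, 95% interval -2.32 to -1.44, limma adjusted p = 0.00017), or 3.69-fold lower, from 3.53 ± 0.40 (SD, n = 3) to 1.65 ± 0.06 (SD, n = 3). Bcl9l, a Wnt pathway gene on the opposite strand, shares 110 of the 3332 annotated exon bases of Cxcr5, and it was lower too (-1.53, limma adjusted p = 0.00106). The sources used here do not state whether counting used strand, and the part of Bcl9l reads in the Cxcr5 value was not tested.

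B cell markers were measured beside Cxcr5. Of 10 tested 9 were lower and 0 higher, with a median of -2.24, among them Ms4a1 (-3.07), Bank1 (-2.55) and Cd22 (-2.50), and their summed value was 244 to 390 in saline and 49.8 to 80.2 in LPS. None of the 10 was at 0 in every library. The log2 value of Cxcr5 minus the mean log2 value of the 10 markers was -0.83, -0.68 and -0.85 in saline and -0.37, -0.76 and -0.61 in LPS. That within-library difference changed by 0.21 between the group means, with overlapping groups. The marker mean includes Cr2, which passed the filter only through the saline libraries. The part of B cells in the Cxcr5 value was not tested.

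Partner genes were compared within each library, since a difference of log2 values between 2 genes largely cancels a scale factor of the library. There were 7 such pairs, and in all 7 the LPS and saline values did not overlap. The share of other gene pairs without overlap was not computed, and 63.4% of single genes tested did not overlap. The pairs share genes and were chosen with earlier results known. All but Cxcr4 minus Cxcl12 hold a gene whose own values did not overlap, so the count is a description. With 3 libraries against 3 the exact two-sided permutation test cannot go below p = 0.1, and each pair gave p = 0.1, also after Benjamini-Hochberg adjustment over the 7 pairs, so none can pass 0.05 in this design.

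For CCR7 and its ligands, Ccl19 minus Ccl21a was -2.22, -2.02 and -0.52 in saline and 3.29, 1.33 and 1.75 in LPS. By these values Ccl21a was the more abundant ligand in each saline library and Ccl19 in each LPS library, a shift of 3.71 on the log2 scale. That order rests on how reads were divided among the copies of each gene, which is uncertain. Ccr7 minus Ccl21a moved from -1.85 ± 0.20 (SD, n = 3) to -0.20 ± 0.23 (SD, n = 3), and Ccr7 minus Ccl19 from -0.26 ± 0.89 (SD, n = 3) to -2.32 ± 0.81 (SD, n = 3). The receptor value barely moved as deposited, so these shifts came from the 2 ligands moving in opposite directions.

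For CXCL12, the signalling and the atypical receptor changed order. Cxcr4 minus Ackr3 was 0.71, 1.54 and 1.40 in saline and -1.49, -0.32 and -1.39 in LPS, so that Cxcr4 was the higher of them in each saline library and Ackr3 in each LPS library. Ackr3 minus Cxcl12 moved from -2.51 ± 0.53 (SD, n = 3) to 0.42 ± 0.60 (SD, n = 3), a shift of 2.93. Cxcr4 minus Cxcl12 moved less, by 0.65, from -1.29 ± 0.18 (SD, n = 3) to -0.64 ± 0.33 (SD, n = 3). For CXCL13, the ligand minus Cxcr5 rose from -0.47, 2.11 and 1.39 in saline to 5.68, 5.36 and 6.04 in LPS, the largest shift of the 7 pairs at 4.68.

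**Figure D3:**
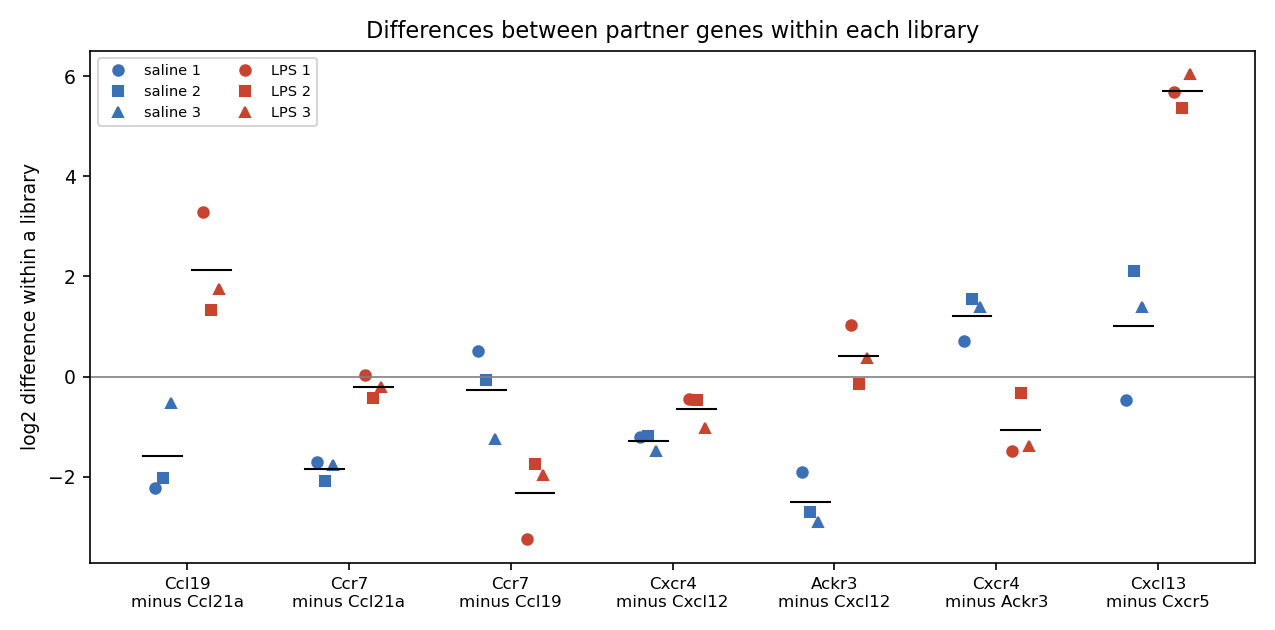
Difference of log2 values between 2 partner genes within each library (y axis) for 7 pairs, with saline in blue, LPS in red, a symbol for each library number and black lines for group means. The groups do not overlap in any pair, and Ccl19 minus Ccl21a and Cxcr4 minus Ackr3 change sign between the groups in every library.

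The order of levels within a group can be compared across genes because the deposited values appear to be scaled by gene length: low values multiplied by transcript length gathered in steps in each library, with 13 to 21 genes in the fullest bin against at most 12 with lengths shuffled. The places of Ccl21a and Ccl19 also rest on how reads were divided among their copies. In saline the order by mean was Cxcl12, Ccl21a, Cxcl14, Cxcr4, Cxcl13, Ccl19, Ackr3, Ccr7 and Cxcr5. Neighbours in that order overlapped except Cxcl12 over Ccl21a and Cxcl14 over Cxcr4. In LPS it was Cxcl13, Cxcl14, Ackr3, Ccl19, Cxcl12, Cxcr4, Ccl21a, Ccr7 and Cxcr5, and neighbours overlapped except Cxcr4 over Ccl21a and Ccr7 over Cxcr5. Among all genes with 6 values, Cxcl13 stood at percentile 63.4 in saline 1, 91.5 in saline 2 and 92.3 in saline 3, and at 96.5 to 97.6 in LPS, whereas Cxcr5 stood at 69.9 to 79.5 in saline and 52.8 to 53.9 in LPS.

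Stretches of 250 bases upstream of the RefSeq start (build GRCm38.p6, the mm10 assembly) were read for 7 of the 9 genes, and Ccr7 and Cxcr5 had no entry in the table used. They were searched on both strands for 6 motifs: the NF-kB consensus, the interferon-stimulated response element, the STAT motif TTCNNNGAA, the AP-1 motif TGANTCA, the TATA motif TATAAA and the GC box GGGCGG. The upstream stretches of 4 genes called as deposited and of Cxcl12, which did not pass as deposited, are shown. With quantile normalization and with equal sums Cxcl14 did not pass and Cxcl12 was called lower. The stretches run 5′ to 3′ on the gene's strand, so that the genes with and without these motifs can be read side by side, with motif matches in capitals:
Cxcl13 upstream, chr5:95956689-95956938, plus strand: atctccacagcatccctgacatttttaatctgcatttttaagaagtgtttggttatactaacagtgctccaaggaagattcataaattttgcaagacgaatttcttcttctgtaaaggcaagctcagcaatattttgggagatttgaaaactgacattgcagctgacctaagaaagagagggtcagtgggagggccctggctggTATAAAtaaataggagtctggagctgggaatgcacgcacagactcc
Cxcl14 upstream, chr13:56296552-56296801, minus strand: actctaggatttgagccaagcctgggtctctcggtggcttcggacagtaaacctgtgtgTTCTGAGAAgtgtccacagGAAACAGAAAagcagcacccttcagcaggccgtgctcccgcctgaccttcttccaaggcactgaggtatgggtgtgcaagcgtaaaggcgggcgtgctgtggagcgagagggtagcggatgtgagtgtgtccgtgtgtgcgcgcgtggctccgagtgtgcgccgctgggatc
Ackr3 upstream, chr1:90203730-90203979, plus strand: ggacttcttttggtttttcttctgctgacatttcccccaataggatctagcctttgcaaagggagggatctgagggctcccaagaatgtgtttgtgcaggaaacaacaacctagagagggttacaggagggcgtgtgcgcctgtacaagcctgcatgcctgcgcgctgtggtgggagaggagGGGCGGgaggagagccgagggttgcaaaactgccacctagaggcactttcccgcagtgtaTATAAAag
Ccl21a upstream, chr4:42773992-42774241, minus strand: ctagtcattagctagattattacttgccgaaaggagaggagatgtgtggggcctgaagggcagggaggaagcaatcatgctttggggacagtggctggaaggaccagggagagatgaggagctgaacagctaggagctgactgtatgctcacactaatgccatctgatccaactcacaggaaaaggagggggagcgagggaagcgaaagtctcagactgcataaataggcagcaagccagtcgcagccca
Cxcl12 upstream, chr6:117168285-117168534, plus strand: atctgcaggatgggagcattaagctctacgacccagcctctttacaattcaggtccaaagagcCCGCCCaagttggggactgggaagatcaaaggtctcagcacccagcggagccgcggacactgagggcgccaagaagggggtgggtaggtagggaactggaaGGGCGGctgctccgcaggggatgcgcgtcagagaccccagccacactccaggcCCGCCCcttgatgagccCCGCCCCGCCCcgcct
Cxcl14 held the interferon motif, as GAAACAGAAA starting 172 bases before the start, and the STAT motif starting at 191 bases. Ccl19 also held the interferon motif, at 208 bases, although its RefSeq start lies inside the longer annotated gene. Over 32851 upstream stretches of the same length, 3.0% held that motif and 7.0% the STAT motif. The GC box was present in Cxcl12 (5 matches, 2 of which overlap by 1 base), Cxcr4 and Ackr3, and in 32.7% of all stretches. Cxcl13, Cxcr4 and Ackr3 held the TATA motif, against 12.4% of all. Ccl21a held none of the 6 motifs, and the NF-kB consensus (7.3% of all stretches) and the AP-1 motif (6.7%) were in none of the 7. A match is a description of the letters and not of binding.

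Genes with the pattern most like each of the 9 over the 6 libraries were found by the root mean square difference of values centred on the gene mean, among 10286 other genes with 6 values. For Ackr3 these were Akap12 (0.20) and Rgcc (0.20), for Ccl19 the immediate early genes Nr4a1 (0.19) and Egr1 (0.27), and for Cxcl14 Rell1 (0.09) and Rhob (0.11). Cxcl13 had no close neighbour: the nearest were the complement gene Cfb at 0.36 and Bcl2a1d at 0.43. For Cxcr5 the nearest was Lrp2 (0.13), and for Ccl21a they were Mfsd2a (0.12) and Olfml3 (0.13). For the genes that did not pass they were Hirip3 and H2-DMb1 (Cxcl12), Dhrs7b and Lamtor2 (Cxcr4), and Fam60a and R3hcc1 (Ccr7).

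Other genes of these pathways were described by lists. Of 14 other homeostatic chemokines and receptors 9 were tested, of which 3 were higher and 2 lower, with a median difference of 0.14 (-0.56 with equal sums, where 2 were higher and 6 lower). Ackr1, the atypical receptor of venules that carries inflammatory chemokines across endothelium, had the largest difference (4.24 higher). Its values were 0.40, 0.94 and 0.94 in saline and 5.41, 4.52 and 5.06 in LPS. Cxcl16, the CXCR6 ligand, was 2.27 higher and Ccr6, the CCL20 receptor of B cells and some T cells, fell by 1.89. Ackr4, the atypical receptor that removes CCL19 and CCL21, was chosen after its values were seen. It was 2.31, 2.23 and 2.06 in saline and 0.21, 0.51 and 0.33 in LPS, a fall of 1.85. Ackr1, Ackr4 and Ccr6, and Aplnr, Chst4, Adipoq and Pck1 among the markers given below, were under the level of the filter (1 before the log) in every library of the lower group. The same held for Cr2, Cd28, Ryr2, Pln and Plin1, which the counts of B cell, T cell, cardiac and adipocyte markers include. All of these genes passed the filter only through the group where they were high. Their values, and the list counts, sums and marker means that include them, are therefore a description.

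Of 14 partners and modifiers of the CXCL12 axis tested, 7 were higher and 3 lower, with a median of 1.14 (0.38 with equal sums, where 7 were higher and 5 lower). Adm, which encodes the vasodilator peptide adrenomedullin that ACKR3 also binds, was 3.21 higher (SE 0.25, limma adjusted p = 7.06e-05). Rgs16, a brake on G protein signalling, was 3.02 higher, and the hypoxia factor gene Hif1a 2.67 higher. Dpp4, whose product cleaves and inactivates CXCL12, chosen after its values were seen, was 4.69, 4.59 and 4.4 in saline and 2.33, 2.46 and 2.67 in LPS, and it fell by 2.07 (SE 0.15, limma adjusted p = 6.03e-05).

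Lymphotoxin signalling through the noncanonical NF-kB pathway drives homeostatic chemokine expression in lymphoid stroma. Of 15 genes of this list tested 8 were higher and 2 lower, with a median of 0.56. With equal sums the median was -0.20, and 2 were higher and 5 lower. Birc3 (2.11, SE 0.22) and the subunit gene Relb (1.63, SE 0.24) led the increases, and Tnfrsf13c, the BAFF receptor of B cells, fell by 1.94 on 2 LPS values. The lymphotoxin genes Lta (-0.33, limma adjusted p = 0.281) and Ltb (-0.30, limma adjusted p = 0.35), chosen after their values were seen, did not pass as deposited; with equal sums both were lower (-0.75 and -1.09).

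Lipid cues also place lymphocytes and dendritic cells. Of 11 genes of that list tested 6 were higher and 2 lower, with a median of 1.11 (0.33 with equal sums, where 5 were higher and 4 lower). Ch25h and Cyp7b1, which make the oxysterol ligand of GPR183, were 4.31 (SE 0.44) and 2.26 (SE 0.32) higher, and the sphingosine kinase gene Sphk1 was 3.08 higher on 2 LPS values. Gpr183 itself, chosen after its values were seen, was lower (-0.75, limma adjusted p = 0.00518).

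**Figure D4:**
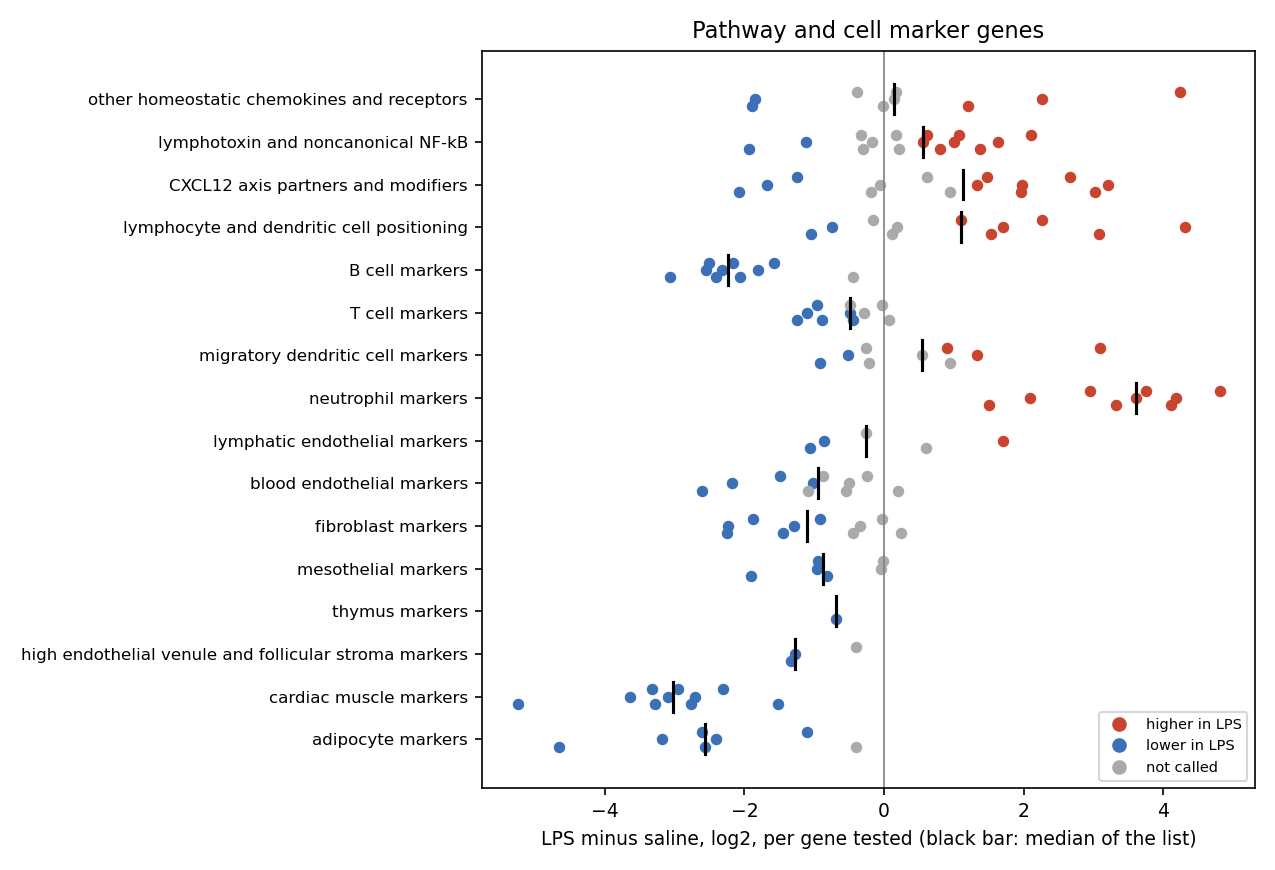
LPS minus saline difference (x axis, log2) of each gene tested in 16 lists of pathway genes and cell markers, in red where called higher, blue where called lower and grey where not called, with a black bar at each list's median. B cell, cardiac and adipocyte markers lie to the left with medians of -2.24, -3.02 and -2.56, and neutrophil markers lie to the right with a median of 3.61.

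Markers of stromal and endothelial cells, which can make these ligands, were measured in the same libraries. Of 10 fibroblast markers 6 were lower, 0 higher and 4 not called (7 lower with quantile normalization and 10 with equal sums), led by Inmt (-2.25), Npnt (-2.24) and Col1a1 (-1.87). Their summed value was 1630 to 2440 in saline and 523 to 680 in LPS. Cxcl14 was higher in those LPS libraries as deposited, but not past the threshold with quantile normalization (0.54) or equal sums (0.28). Of 10 blood endothelial markers 4 were lower, 0 higher and 6 not called, with a median of -0.94. With quantile normalization 8 were lower (median -1.25) and with equal sums 10 (median -1.69). The called markers included Aplnr (-2.60), Kdr (-2.17) and Tek (-1.49, on 2 LPS values), and the sum over 6 was 712 to 765 in saline and 581 to 645 in LPS. Ackr3 minus the mean of 6 endothelial markers moved from -2.21 ± 0.12 (SD, n = 3) to 1.38 ± 0.51 (SD, n = 3). The part of endothelial cells in the Ackr3 value was not tested. Of 5 lymphatic endothelial markers tested (of 8 listed), Flt4 (-1.06) and Sema3d (-0.86) were lower, Lyve1 (1.70) was higher and 2 did not pass. The other 3 listed did not pass the filter on low values. The defining gene Prox1 was 0.82, 0.42 and 0.32 in saline and 0.07, 0.11 and 0.1 in LPS. Reln was 0.93, 0.59 and 0.88 in saline and 0.21, 0.37 and 0.35 in LPS. Nts went the other way, from 0.2, 0.22 and 0.44 to 0.67, 0.85 and 0.75. Ccl21a minus the mean of the 5 tested markers was 1.34, 1.85 and 1.69 in saline and -0.46, 0.29 and -0.06 in LPS. Pdpn and Lyve1 had the highest values of these 5, so the mean does not follow the lower ones closely. The part of lymphatic cells in the Ccl21a value was not tested.

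Other tissues that a lung piece can carry were also checked. Of 10 thymus markers 9 did not pass the filter on low values, 4 of these (Rag1, Rag2, Foxn1 and Psmb11) were under 0.1 in every library, and Cd8b1 was lower (-0.69); the summed value of 9 was 6.90 to 10.3 in saline and 4.37 to 5.17 in LPS. Of 8 genes of high endothelial venules and follicular stroma, 3 were tested and 2 were lower, Chst4 (-1.33) and Chst2 (-1.28), and the sum over 6 was 24.3 to 47.1 in saline and 14.7 to 20.8 in LPS. Glycam1, a mucin-like product of high endothelial venules, chosen after its values were seen, was 4.09 in saline 3 and 0.33 at most in the other libraries. Saline 3 was also the saline library with the highest Ccl19 (5.33), Cxcr5 (3.99) and mean of B cell markers (4.84, against 4.13 and 3.99). Without saline 3 the difference was 2.56 for Ccl19 and -1.65 for Cxcr5, both still called. The part of lymphoid tissue in the saline 3 values was not tested. Of 6 mesothelial markers tested 4 were lower and 0 higher, led by Upk3b (-1.90, on 2 LPS values), Lrrn4 (-0.96) and Rspo1 (-0.94). Their sum over 4 was 141 to 239 in saline and 155 to 222 in LPS. Most of that sum came from Krt19, which did not pass (-0.04), so it says little about the lower markers.

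All 10 cardiac markers were lower, led by Nppa (-5.25), Myh6 (-3.64) and Sln (-3.33, on 2 LPS values), with a sum over 7 of 210 to 1880 in saline and 36.9 to 136 in LPS. Of 7 adipocyte markers tested 6 were lower, with Cfd (-4.65), Adipoq (-3.18) and Pck1 (-2.60) lowest, and their sum over 8 was 114 to 311 in saline and 74.4 to 116 in LPS. Most of the LPS sum came from Fabp4, which did not pass (-0.40). The saline libraries thus held more signal of heart muscle than the LPS libraries. Saline 1, in which Cxcl13 and Ccl19 were lowest, had the highest Nppa value (9.04, against 6.12 and 4.72). It also had the lowest Lcn2 value of the saline libraries (8.20, against 11.28 and 10.11). The mean of 8 neutrophil markers was 4.11, 5.57 and 4.38 in saline 1, 2 and 3. The part of these tissues, and of these other differences among saline libraries, in the 9 genes was not tested.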

How the data were processed

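RNA from lung was sequenced in 6 libraries, 3 labelled saline and 3 labelled LPS, grouped by title. Trizol extraction and a strand-marking library kit were used, per the labels' protocols. TopHat and the mm10 build are named in the submitters' processing notes. Counting tool, annotation and scaling: not given in the sources used here. Deposited values are log2, with the form inferred from the values (at least 0, not whole, with exact zeros): log2(value + 1). Exact zeros number 3869 in each saline library, an identical count, and 5117 to 6223 in the LPS libraries. Values above 0 but very close to it number 1505 to 1936 in the saline libraries and 11 to 24 in the LPS libraries. The lowest values thus differ in form between the groups, and whether the groups were quantified or processed differently was not tested. If they were, every difference given here would carry processing and treatment together, most of all for genes with low values.

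The filter kept a gene with values (before the log) of 1 or more in at least 3 libraries. The fit was limma 3.58.1 (R 4.3.3) with a trend on mean expression and Benjamini-Hochberg adjustment over all genes kept, checked on simulated data; partner differences used exact permutation tests (scipy 1.17.1). Loci came from GENCODE for mm10 and upstream sequences from RefSeq. Alternatives were filters, scalings, pseudocount, threshold, trend, replicate block and left-out libraries. The members, lists, pairs and motifs were chosen with earlier results of these data known, and the 6 motifs after matches to more had been looked at. Named genes were the 9 members, the 3 largest called changes of each list, and the 2 nearest patterns per member. The text also gives Ackr4, Dpp4, Lta, Ltb, Gpr183, Glycam1, Prox1, Bcl9l and 4 thymus genes, chosen after their values were seen. Reln, Nts, Pdpn, Krt19 and Fabp4 were likewise chosen after their values were seen. Cr2, Cd28, Ryr2, Pln and Plin1 are named only for the filter, also after their values were seen. The second nearest gene for Cxcr5 is not reported here.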

Additional observations from a re-analysis of the deposited data

How the results depend on the processing

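The counts of 4 genes higher and 2 lower among the 9 were the same without a filter, with a mean of at least 5, with log2(value + 0.1), without a trend, at a threshold of 0.01 and with each library left out. With quantile normalization 3 were higher and 3 lower, where 2694 of the 13116 genes tested were higher and 2787 lower. With equal sums 3 were higher and 5 lower, where 798 of the 13116 genes tested were higher and 8342 lower. Under equal sums Cxcl14 (0.28) no longer passed, Cxcl12 (-1.10) and Ccr7 (-0.78) passed as lower and Cxcr4 turned to -0.45. With quantile normalization Cxcl14 (0.54) no longer passed, Cxcl12 (-0.88) passed and Cxcr4 turned to -0.035. The difference of Ccl19 with saline 1 and 3 against LPS 1 and 2, a setting chosen after seeing the data, was 2.06 and did not pass (limma adjusted p = 0.0544). Leaving out 1 library gave ranges of 1.57 to 2.56 for Ccl19, -1.82 to -1.47 for Ccl21a, -0.50 to -0.15 for Cxcl12, 1.94 to 3.24 for Cxcl13, 0.84 to 1.25 for Cxcl14, -0.11 to 0.062 for Ccr7, 0.17 to 0.49 for Cxcr4, -2.0 to -1.65 for Cxcr5 and 2.47 to 2.82 for Ackr3, and no call changed, although the sign of Ccr7 turned without saline 2 (0.0047), saline 3 (0.016) or LPS 1. All 7 partner shifts kept their sign in the 8 alternatives run for them.

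Over all genes, 6565 were called, 3377 higher and 3188 lower. At a threshold of 0.01 there were 4037 (2033 and 2004). With equal sums 798 were higher and 8342 lower, with a mean of at least 5 there were 1752 lower, and leaving out 1 library gave 4692 to 6663 calls, 2367 to 3643 higher and 2140 to 3020 lower. With the replicate number as a block 5417 genes were called, and the 9 genes again gave 4 higher and 2 lower. Deviations of same-numbered libraries from their group means correlated at -0.234, -0.078 and -0.252 over 10295 genes. For libraries with different numbers the values were -0.013 to 0.217. With 3 libraries per group the deviations within a group depend on each other. These correlations therefore cannot decide whether the numbers pair the samples. Depth is unknown, so no detection limit is given for low genes such as Cxcr5.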
